A study of Sus scrofa with 12 samples.

Results

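The expressed ZNF genes of porcine granulosa cells were the genes of the authors' expression table whose symbol is ZNF followed by a number and whose level averaged at least 1 FPKM over 6 input libraries. FPKM counts fragments scaled by transcript length and library total. ZNF395 was left out by the rule. The table lists 18060 genes, of which 252 are named ZNF and a number, and 131 of these made up the set. Membership was set by name and by the mean level over both conditions, so the levels of the set are a description. The rule used neither hypoxia against normoxia nor the m6A peaks, but it was drawn up with earlier results of these data known. Just inside the threshold stood ZNF396 with a mean of 1.05 FPKM and ZNF507 with 1.06 FPKM, and just outside it ZNF621 with 0.990 FPKM and ZNF667 with 0.976 FPKM.

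Granulosa cells are the somatic cells that line the ovarian follicle and feed the oocyte. Here they were primary cells taken from antral follicles of Duroc × Yorkshire × Landrace sows and cultured in DMEM/F-12 with serum. The hypoxia cultures spent 12 h in 1% O2, 5% CO2 and 94% N2, and the normoxia cultures 12 h in 21% O2, 5% CO2 and 74% N2. There were 3 biological replicates of either condition. For each, RNA was sequenced as input and after enrichment with an antibody to m6A, N6-methyladenosine, the commonest internal methylation of mRNA. It is not stated that each replicate stands for its own sow, so the p-values measure the spread between these samples, which may be technical.

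Most ZNF genes code for proteins with C2H2 zinc fingers, small zinc-holding folds that usually bind DNA; a few carry the name for other folds, such as ZNF185, a LIM domain protein. In mammals many of the C2H2 proteins also carry a KRAB box, which recruits the corepressor TRIM28 and, through it, the H3K9 methyltransferase SETDB1 and HP1 proteins, and such proteins are best known for silencing transposable elements. Others have no KRAB box and act in transcription activation, RNA binding, ribosome assembly or cell division. The fingers of a KRAB zinc finger protein are typically encoded in 1 long last exon, and m6A in mammalian mRNA is known to be frequent in long exons and around stop codons. Pig gene sequences of these members were not at hand, so none are shown. Reads that fit several of these related genes may have been split between them by the authors' counting, so the levels of close copies are uncertain.

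Input libraries summed to between 294929 and 326804 FPKM, and the depth behind them is unknown. Hypoxia library 3 stood apart from its group: across tested genes, its log2(FPKM + 1) values had r = 0.915 with hypoxia library 2 and r = 0.956 with hypoxia library 1, against r = 0.986 between the other 2 hypoxia libraries and r = 0.982 to 0.991 between normoxia libraries. Of 16 granulosa markers, 12 averaged at least 1 FPKM, and AMH, CYP19A1, HSD17B1 and STAR were under it. The summed level of the 16 was 206 to 351 FPKM in hypoxia and 374 to 575 FPKM in normoxia, and without CYP11A1, the highest of them, 119 to 137 FPKM in hypoxia and 121 to 131 FPKM in normoxia. All 10 fibroblast and smooth muscle markers averaged at least 1 FPKM, with sums of 6371 to 7632 FPKM in hypoxia and 9794 to 11684 FPKM in normoxia, and without ACTA2, the highest, 2990.4 to 3532 FPKM in hypoxia and 3084 to 3377 FPKM in normoxia. Theca markers, 6 in the table with 3 at 1 FPKM or more, summed to 14.4 to 29.3 FPKM in hypoxia and 13.7 to 18.8 FPKM in normoxia. Without PDGFRB, the highest of them, the other 5 summed to 2.27 to 4.59 FPKM in hypoxia and 6.27 to 7.82 FPKM in normoxia. Among 7 endothelial markers with values 1 reached 1 FPKM, and among 7 leukocyte markers 2 did. The part of these marker values in the results on ZNF genes was not tested, and in bulk RNA fewer cells of a type and less RNA per cell cannot be told apart.

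Most ZNF genes were present at low levels. Their mean levels ran from 1.05 to 31.9 FPKM, with quartiles of 1.77 and 4.67 FPKM. The 130 members that passed the filter for testing, at least 1 FPKM in at least 3 libraries, had a median of 2.88 FPKM, against 6.15 FPKM over all 10196 genes tested. Together the members held 0.164%, 0.197% and 0.154% of the FPKM in the hypoxia libraries, and 0.194%, 0.204% and 0.193% in the normoxia libraries. Hypoxia library 2 lay within the range of normoxia and the other hypoxia libraries below it.

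The 8 ZNF genes of highest level were ZNF358, ZNF664, ZNF207, ZNF622, ZNF511, ZNF428, ZNF768 and ZNF609, at mean levels of 31.9, 30.7, 27.4, 19.5, 15.3, 14.9, 13.4 and 11.7 FPKM. ZNF358 averaged 28.5 ± 11.4 FPKM in hypoxia and 35.3 ± 6.43 FPKM in normoxia (SD, n = 3 each). ZNF207, also called BuGZ, a spindle protein that binds the checkpoint factor BUB3, averaged 25.6 ± 8.49 FPKM in hypoxia and 29.1 ± 2.96 FPKM in normoxia. ZNF664 averaged 24.7 ± 13.0 FPKM in hypoxia and 36.6 ± 6.24 FPKM in normoxia, and ZNF428 14.8 ± 3.63 FPKM in hypoxia and 15.1 ± 2.06 FPKM in normoxia. In these 4 genes the hypoxia and normoxia libraries overlapped. ZNF511 averaged 17.0 ± 4.64 FPKM in hypoxia and 13.7 ± 2.63 FPKM in normoxia, and ZNF609, which acts in the migration of cortical neurons in mice, 10.9 ± 1.17 FPKM in hypoxia and 12.5 ± 0.663 FPKM in normoxia. Of these 8 genes, ZNF622 and ZNF768 passed the test between conditions and are described with the genes that fell.

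In the comparison of RNA between hypoxia and normoxia, 20 of the 130 tested ZNF genes fell and 0 rose (limma on log2(FPKM + 1), Benjamini-Hochberg adjusted p under 0.05 over all 10196 tested genes). Over all tested genes, 21.1% fell and 5.40% rose by the same rule, so the share of ZNF genes that fell, 15.4%, was near the background and somewhat below it. At an unadjusted p under 0.05, 28 ZNF genes were lower and 3 higher. The median log2 fold change was -0.15 over the ZNF genes and -0.26 over all tested genes, a difference of 0.12 that turned to -0.09 with no filter on level, and 66.2% of the ZNF genes and 72.2% of all genes had a negative value. Log2 fold changes here are on the log2(FPKM + 1) scale, which understates the change of low genes. In 36 of the 130 tested ZNF genes every hypoxia library lay below every normoxia library, a smaller share than the 34.9% of all tested genes. In 9 of the 130 every hypoxia library lay above, also a smaller share than the 9.25% of all tested genes.

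The fold changes of ZNF genes lay closer together than those of all genes, though not at every level. Their interquartile range was 0.467 on the log2 scale, against 0.629 for all tested genes. A change of at least 1 in either direction on the log2(FPKM + 1) scale was seen in 2 of them (1.54%), ZNF703 and ZNF593, against 11.1% of all tested genes. No matching of level enters that count. Among other genes the share was 6.40% at 1 to 2 FPKM, 9.47% at 2 to 4 FPKM and 12.5% at 4 to 8 FPKM. In ZNF genes it was 0%, 0% and 6.90%. That scale understates the change of low genes. On the authors' own scale, as given below, 8 ZNF genes are marked down and 2 up at 2-fold or more. Between 1 and 2 FPKM the interquartile range was 0.370 for ZNF genes and 0.540 for other genes, between 2 and 4 FPKM 0.465 and 0.599, and between 8 and 16 FPKM 0.405 and 0.689. Between 4 and 8 FPKM it was 0.631 for ZNF genes and 0.633 for other genes, so the spread was not narrower there. Both ZNF genes past a change of 1 were in that bin of 29. Between 1 and 2 FPKM, 2 of 39 ZNF genes fell, against 14.4% of 1548 other genes. Between 4 and 8 FPKM, 8 of 29 fell, against 21.0% of the other genes.

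**Figure D1:**
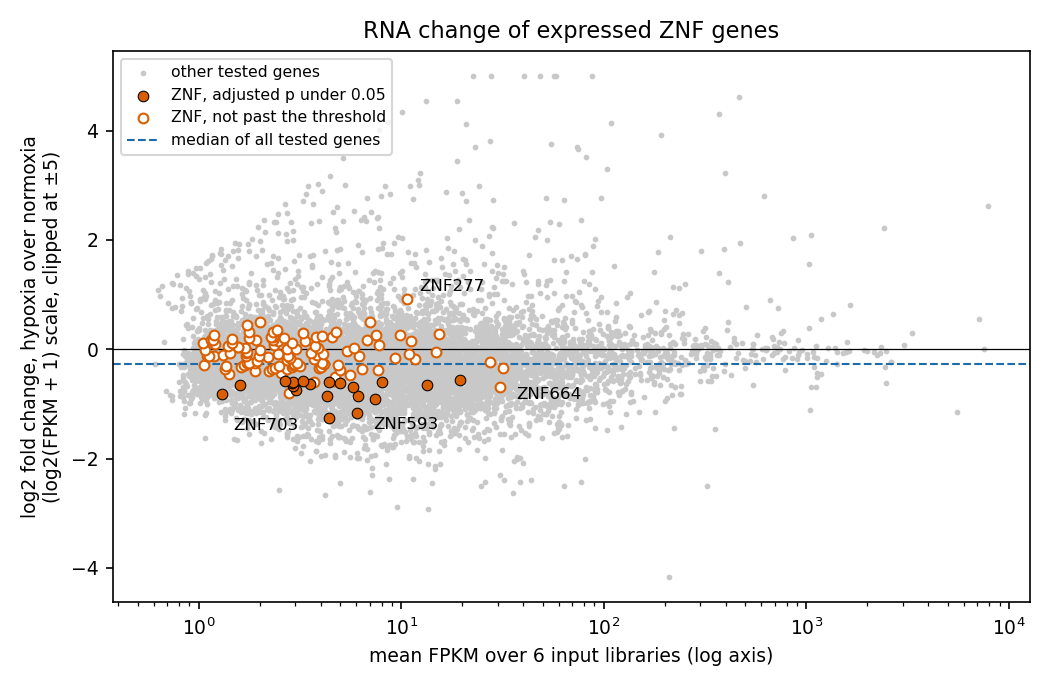
Log2 fold change of hypoxia over normoxia on the log2(FPKM + 1) scale (y axis, clipped at ±5) against mean FPKM over 6 input libraries (x axis, log scale) for each tested gene. Filled orange points are the 20 ZNF genes past a limma adjusted p of 0.05, open orange points the other tested ZNF genes and grey points all other genes; the filled points all lie below the dashed median of all genes at -0.26, and no filled point lies above 0.

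These counts rest on the scaling and on single libraries. After each library was divided by a median-ratio factor, the median log2 fold change of all tested genes was 0.02 and that of ZNF genes 0.09, with 2 ZNF genes lower, ZNF280B and ZNF593, and 3 higher, ZNF2, ZNF277 and ZNF436; over all genes 7.39% were then lower and 7.34% higher. The number that fell was 5 without hypoxia library 1, 18 without hypoxia library 2, 28 without hypoxia library 3, 7 without normoxia library 1, and 2 without normoxia library 2 or normoxia library 3. Without hypoxia library 3, 8 ZNF genes rose (ZNF2, ZNF143, ZNF148, ZNF277, ZNF330, ZNF385D, ZNF436 and ZNF558), and 0 did in the fits that left out any other library. These names were taken after the values were seen. The sign of all 20 genes that fell was negative in every one of these fits.

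The gene with the largest fall was ZNF703, which codes for a corepressor of the NET family that has no KRAB box. It had 1.55, 1.86 and 3.33 FPKM in the hypoxia libraries, against 5.30, 7.33 and 7.10 FPKM in the normoxia libraries (limma log2 fold change -1.25 ± 0.244 SE, adjusted p = 0.0106). Its 3 hypoxia values lay below all normoxia values, with hypoxia library 3 the highest of them. ZNF503, the other NET member in mammals, known from development of the striatum in mice, had 1.63, 2.22 and 1.95 FPKM in the hypoxia libraries, against 2.97, 3.71 and 3.51 FPKM in the normoxia libraries (limma log2 fold change -0.58 ± 0.167 SE, adjusted p = 0.0396). Here too the groups did not overlap.

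A pair of genes tied to the large ribosomal subunit fell. ZNF593, whose yeast relative Bud20 acts in export of that subunit from the nucleus, had 3.36, 2.80 and 3.91 FPKM in the hypoxia libraries, against 8.33, 9.02 and 8.74 FPKM in the normoxia libraries (limma log2 fold change -1.16 ± 0.161 SE, adjusted p = 0.00294). The values within each condition were close and the highest hypoxia value was under the lowest normoxia value. ZNF622, whose yeast relative Rei1 acts in late maturation of the subunit in the cytoplasm, had 15.5, 13.8 and 17.5 FPKM in the hypoxia libraries, against 20.4, 26.2 and 23.8 FPKM in the normoxia libraries (limma log2 fold change -0.56 ± 0.162 SE, adjusted p = 0.0407). ZNF598, a ubiquitin ligase that senses collided ribosomes, had 3.89, 4.01 and 4.57 FPKM in the hypoxia libraries, against 5.79, 8.63 and 7.71 FPKM in the normoxia libraries (limma log2 fold change -0.69 ± 0.182 SE, adjusted p = 0.0305). For ZNF622 and ZNF598 the conditions did not overlap either.

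ZNF346, which binds double-stranded RNA, had 4.84, 4.02 and 5.86 FPKM in the hypoxia libraries, against 9.07, 9.74 and 11.2 FPKM in the normoxia libraries (limma log2 fold change -0.91 ± 0.176 SE, adjusted p = 0.00983). ZNF853 had 4.30, 3.75 and 3.96 FPKM in the hypoxia libraries, against 6.67, 9.75 and 8.11 FPKM in the normoxia libraries (limma log2 fold change -0.86 ± 0.175 SE, adjusted p = 0.0114). ZNF623 had 2.87, 2.69 and 2.78 FPKM in the hypoxia libraries, against 5.43, 5.71 and 6.42 FPKM in the normoxia libraries (limma log2 fold change -0.86 ± 0.151 SE, adjusted p = 0.00692). In each of these 3 genes all hypoxia libraries were lower than all normoxia libraries, and in ZNF623 the hypoxia values nearly coincided. ZNF280B had 0.553, 1.13 and 0.375 FPKM in the hypoxia libraries, against 2.03, 1.83 and 1.85 FPKM in the normoxia libraries (limma log2 fold change -0.81 ± 0.191 SE, adjusted p = 0.0205). Its hypoxia values were near or under 1 FPKM and all below normoxia. With group means of 0.686 FPKM in hypoxia and 1.91 FPKM in normoxia, ZNF280B entered the set through normoxia alone, and its fall carries that limit. ZNF618, which binds 5-hydroxymethylcytosine with its partner UHRF2, had 1.74, 2.04 and 2.25 FPKM in the hypoxia libraries, against 3.92, 3.73 and 4.42 FPKM in the normoxia libraries (limma log2 fold change -0.74 ± 0.161 SE, adjusted p = 0.0149).

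ZNF710 had 1.75, 2.13 and 2.18 FPKM in the hypoxia libraries, against 3.83, 3.64 and 3.97 FPKM in the normoxia libraries (limma log2 fold change -0.68 ± 0.156 SE, adjusted p = 0.0183). ZNF18 had 1.02, 0.922 and 1.08 FPKM in the hypoxia libraries, against 1.95, 2.36 and 2.21 FPKM in the normoxia libraries (limma log2 fold change -0.66 ± 0.143 SE, adjusted p = 0.0148). For both, the highest hypoxia library lay below the lowest normoxia library. The other 10 genes that fell were ZNF768, ZNF398, ZNF362, ZNF777, ZNF16, ZNF513, ZNF276, ZNF689, ZNF503 and ZNF622, with log2 fold changes of -0.65 to -0.56 and limma adjusted p of 0.0189 to 0.0437. Among them ZNF768, which binds MIR repeats, had 9.58, 8.79 and 12.3 FPKM in the hypoxia libraries, against 14.0, 18.1 and 17.5 FPKM in the normoxia libraries. ZNF16, linked to erythroid and megakaryocyte differentiation in human cells, had 5.69, 5.90 and 7.00 FPKM in the hypoxia libraries, against 9.24, 10.1 and 10.5 FPKM in the normoxia libraries. In all 20 genes the 2 conditions did not overlap, and hypoxia library 3 was the lowest hypoxia library in 1 of the 20. The ratio of mean FPKM, hypoxia over normoxia, ran from 0.342 to 0.664 over the 20.

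The call of ZNF593 held in every alternative run, and that of ZNF623 in all but the median-ratio scaling (limma adjusted p = 0.0676). The calls of ZNF346, ZNF703 and ZNF853 were lost after that scaling and without normoxia library 2 or 3, with adjusted p of 0.0509 to 0.139. ZNF280B lost its call without hypoxia library 1 or any 1 normoxia library, with adjusted p of 0.0686 to 0.0935. Each of the other 14 genes lost its call in 4 to 7 alternatives, with adjusted p of 0.0513 to 0.565.

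**Figure D2:**
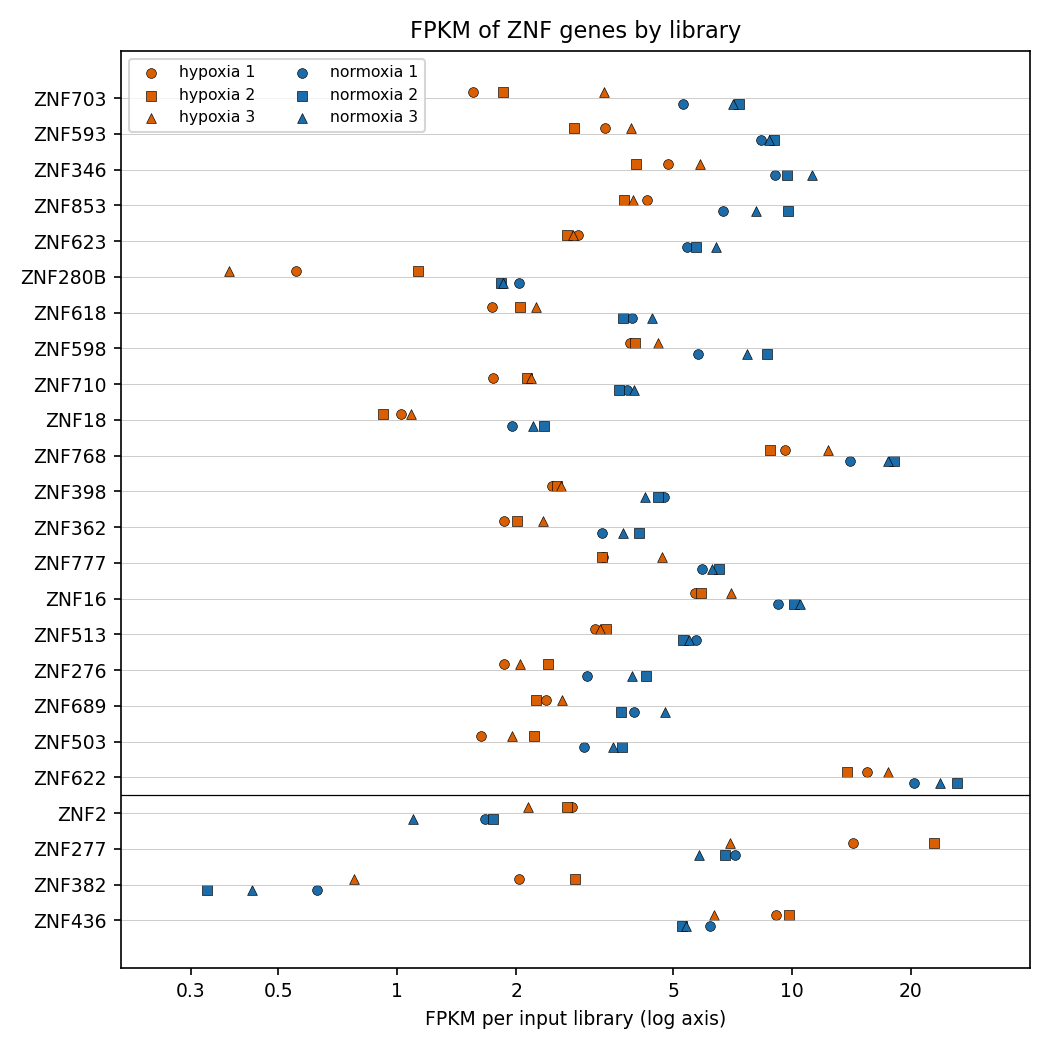
FPKM per input library (x axis, log scale) of the 20 ZNF genes that fell (above the line) and of ZNF2, ZNF277, ZNF382 and ZNF436 (below the line). Orange symbols are the 3 hypoxia libraries and blue symbols the 3 normoxia libraries; above the line all orange symbols of a gene lie left of its blue symbols, and below the line all lie right of them, except hypoxia library 3 of ZNF277, which lies among its blue symbols.

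No ZNF gene passed the test upward with FPKM as deposited. Of the 9 tested ZNF genes whose hypoxia libraries all lay above normoxia, ZNF2 and ZNF436 are described below; the other 7 had limma log2 fold changes of 0.16 to 0.35 and adjusted p of 0.152 to 0.485. ZNF277 and ZNF382 are described for the authors' marks given below. These 4 genes were chosen after their values were seen. ZNF277, whose mouse relative binds the Polycomb protein BMI1, had 14.3, 22.9 and 6.97 FPKM in the hypoxia libraries, against 7.19, 6.76 and 5.81 FPKM in the normoxia libraries (limma log2 fold change 0.92 ± 0.374 SE, adjusted p = 0.119). Hypoxia library 3 was near the normoxia values and the other 2 hypoxia libraries far above them. Without that library its log2 fold change was 1.34 with a limma adjusted p of 0.000284, and after median-ratio scaling 1.23 with an adjusted p of 0.0322.

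ZNF2 had 2.77, 2.69 and 2.15 FPKM in the hypoxia libraries, against 1.67, 1.75 and 1.09 FPKM in the normoxia libraries (limma log2 fold change 0.50 ± 0.179 SE, adjusted p = 0.0792). ZNF436 had 9.11, 9.83 and 6.33 FPKM in the hypoxia libraries, against 6.20, 5.26 and 5.38 FPKM in the normoxia libraries (limma log2 fold change 0.49 ± 0.191 SE, adjusted p = 0.102). In both, all hypoxia values were above all normoxia values. After median-ratio scaling both passed, with a log2 fold change of 0.74 for ZNF2 (limma adjusted p = 0.0208) and 0.80 for ZNF436 (limma adjusted p = 0.0153). ZNF382 was the 1 member that did not pass the filter for testing, with 2.04, 2.82 and 0.777 FPKM in the hypoxia libraries, against 0.627, 0.330 and 0.430 FPKM in the normoxia libraries. It lay above 1 FPKM in 2 libraries, both from hypoxia. Its mean passed 1 FPKM through the hypoxia libraries alone, so it is given with no test.

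Of 20 ZNF genes listed for a known role outside KRAB repression, 19 were members, ZNF423 being under 1 FPKM, and 6 of the 19 fell: ZNF346, ZNF503, ZNF593, ZNF598, ZNF622 and ZNF703. That is 31.6%, beside 21.1% of all tested genes, and no test of the list was made. The list was drawn up with earlier results of these data known, so its share is a description only. The other 13 did not pass the test, and their log2 fold changes ran from -0.79 to 0.20. The 13 include regulators of many promoters. ZNF143, which activates snRNA and selenocysteine tRNA promoters, averaged 2.14 ± 0.948 FPKM in hypoxia and 1.70 ± 0.158 FPKM in normoxia (SD, n = 3 each; limma log2 fold change 0.17 ± 0.252 SE, adjusted p = 0.678). ZNF148 averaged 3.18 ± 2.67 FPKM in hypoxia and 2.12 ± 0.216 FPKM in normoxia (limma log2 fold change 0.20 ± 0.467 SE, adjusted p = 0.795), and both gave a call upward without hypoxia library 3. ZNF326, a subunit of the DBIRD complex that links splicing to RNA polymerase II elongation, had 1.46, 3.29 and 0.877 FPKM in the hypoxia libraries, against 4.18, 4.22 and 2.80 FPKM in the normoxia libraries (limma log2 fold change -0.79 ± 0.321 SE, adjusted p = 0.117).

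ZNF217, which works with the CoREST and LSD1 corepressors, averaged 4.22 ± 0.484 FPKM in hypoxia and 5.81 ± 0.469 FPKM in normoxia (limma log2 fold change -0.39 ± 0.157 SE, adjusted p = 0.116). ZNF410, an activator of the CHD4 gene, averaged 5.91 ± 1.05 FPKM in hypoxia and 6.46 ± 0.542 FPKM in normoxia (limma log2 fold change -0.12 ± 0.173 SE, adjusted p = 0.664). ZNF335, part of an H3K4 methyltransferase complex, averaged 3.98 ± 0.776 FPKM in hypoxia and 4.27 ± 0.587 FPKM in normoxia (limma log2 fold change -0.09 ± 0.185 SE, adjusted p = 0.780). None of the 3 passed the test; the groups did not overlap for ZNF217, with every hypoxia library below normoxia, and overlapped for the other 2. For ZNF638, ZNF644, ZNF281, ZNF24, ZNF263 and ZNF521 the log2 fold changes were 0.04, -0.13, -0.37, -0.11, -0.12 and 0.07.

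Of 36 listed corepressor and heterochromatin partners of KRAB zinc finger proteins, 32 are in the table and 29 were tested; 5 fell and 0 rose (limma adjusted p under 0.05), 9 were lower and 0 higher at an unadjusted p under 0.05, and the median log2 fold change was -0.19. The share that fell, 17.2%, was under the 21.1% of all tested genes. TRIM28, which KRAB boxes recruit, had 55.1, 51.2 and 68.9 FPKM in the hypoxia libraries, against 75.5, 85.6 and 82.3 FPKM in the normoxia libraries (limma log2 fold change -0.48 ± 0.156 SE, adjusted p = 0.0616). All its hypoxia values were below its normoxia values, but the adjusted p missed the threshold. SETDB1, the methyltransferase brought in by TRIM28, had 3.72, 3.86 and 4.55 FPKM in the hypoxia libraries, against 4.50, 4.19 and 4.36 FPKM in the normoxia libraries (limma log2 fold change -0.09 ± 0.154 SE, adjusted p = 0.724), and its groups overlapped. The 5 that fell were UHRF1, MTA2, HDAC1, CHD4 and SUMO3, with log2 fold changes of -1.27, -1.15, -0.86, -0.81 and -0.69. MTA2, HDAC1 and CHD4 are NuRD subunits, UHRF1 guides DNMT1 to newly copied DNA, and SUMO3 is a SUMO protein. Their names were taken after their values were seen.

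Other gene families grouped by the start of their names, most of them C2H2 genes, had few calls too. The name does not fix the fold, and ZFP36, ZFP36L1, ZFP36L2 and ZBTB8OS among them are not C2H2 genes. Of 24 tested ZBTB genes 2 fell, ZBTB24 and ZBTB9, with a family median of -0.14 on the log2 scale. Of 10 ZFP genes ZFP64 fell, with a family median of -0.23, and 0 of 4 ZSCAN, 3 ZKSCAN and 12 KLF genes passed the test. None of these families had a call upward, and at an unadjusted p under 0.05 there were 1 such ZBTB gene and 2 KLF genes. The ZBTB24, ZBTB9 and ZFP64 names were taken after their values were seen.

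Individual hypoxia libraries differed in how low the ZNF genes were. Relative to the normoxia mean, the median ZNF gene differed on the log2(FPKM + 1) scale by -0.18 in hypoxia library 1, -0.04 in hypoxia library 2 and -0.30 in hypoxia library 3. The matching medians over all tested genes were -0.22, -0.14 and -0.48. Library 3 was the lowest hypoxia library in 58 of 130 ZNF genes (44.6%) and the highest in 55 (42.3%), against 55.5% and 36.1% of all tested genes. The median coefficient of variation of FPKM was 21.4% in hypoxia and 12.1% in normoxia for ZNF genes, and 26.9% and 12.8% for all tested genes. It was over 50% in 19 ZNF genes in hypoxia and in 0 in normoxia.

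The members lie on 18 chromosomes. Of the 131, 33 are on chromosome 6, 23 on chromosome 3 and 10 each on chromosomes 2 and 4, and 60 lie within 500 kb of another member. Of those on chromosome 6, 3 fell, with a median log2 fold change of -0.05 on that chromosome, and of those on chromosome 3, 5 fell, with a median of -0.27. Chromosomes 2 and 4 had 1 and 2 genes that fell. Over all tested genes 21.1% fell, and the numbers per chromosome are too small to read against it. No test of chromosomes was made.

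The authors' deposited comparison of RNA marks 10 of the 131 ZNF genes as changed, which takes a p below 0.05 before adjustment together with a 2-fold change or more. It marks 8 as down, ZNF703, ZNF280B, ZNF593, ZNF18, ZNF623, ZNF853, ZNF346 and ZNF618, and 2 as up, ZNF277 and ZNF382. Among all tested genes the authors' deposited table marks 12.5% down and 4.93% up. In the authors' deposited table ZNF277 has a log2 fold change of 1.16 and a q-value of 0.00135, and ZNF382 a log2 fold change of 2.02. ZNF382 entered the set through hypoxia alone and ZNF280B through normoxia alone, so their marks carry that limit. All 8 marked down are among the 20 that fell in the limma test. At a q-value under 0.05 in the authors' deposited table, 4 ZNF genes were lower, ZNF280B among them, and 4 higher, ZNF382 among them. Of those marked down, ZNF18, ZNF853, ZNF346 and ZNF618 have q-values of 0.0905 to 0.132 there. ZNF436 and ZNF2 are not marked but are higher there with q-values of 0.0108 and 0.0234.

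m6A was described from the authors' deposited peak lists, 1 list per condition, which give no values per replicate, so no difference in m6A below has an error or a test of its own. Nearly every ZNF gene carried a listed peak. In hypoxia 129 of 131 (98.5%) did and in normoxia 131 of 131, against 79.8% and 85.9% of all genes with at least 1 FPKM. Only ZNF511 and ZNF185 had no peak in the hypoxia list. The ZNF genes had 378 peaks in hypoxia and 366 in normoxia, a mean of 2.89 and 2.79 per gene, against 1.76 and 1.89 per other gene. At least 3 peaks were listed for 56.5% of ZNF genes in hypoxia and 49.6% in normoxia, against 24.6% and 26.5% of the other genes.

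The larger number of peaks was seen at equal RNA levels up to 8 FPKM and not above. Between 1 and 2 FPKM, 40 ZNF genes had a mean of 3.23 peaks in hypoxia and 3.20 in normoxia, against 1.89 and 2.06 in 1598 other genes. Between 2 and 4 FPKM, 48 ZNF genes had 2.85 and 2.69, against 1.92 and 2.02. Between 4 and 8 FPKM, 29 ZNF genes had 3.03 and 2.83, against 1.86 and 2.00. Above that level the means were close: between 8 and 16 FPKM, 10 ZNF genes had 1.80 in hypoxia and 2.10 in normoxia, against 1.81 and 1.93, and at 16 FPKM and over 4 ZNF genes had 1.50 in both, against 1.45 and 1.55. The ZNF genes were not longer on the genome, with a median span of 13931 bases against 25141 for the other genes. Transcript length was not at hand, and its part in the number of peaks was not tested.

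**Figure D3:**
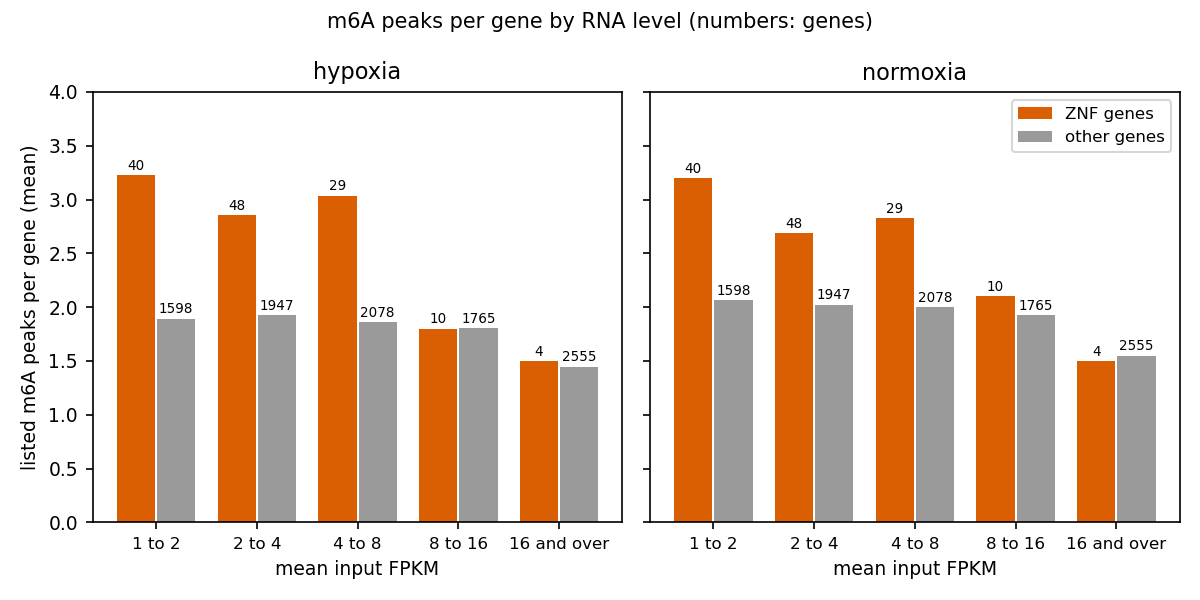
Mean number of listed m6A peaks per gene (y axis) by mean input FPKM (x axis) in hypoxia (left panel) and normoxia (right panel), with the number of genes above each bar. Orange bars are ZNF genes and grey bars other genes; the orange bars are the taller ones in the bins from 1 to 8 FPKM in both panels, and in the 2 bins above they differ little from the grey bars.

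Peaks were also usual in ZNF genes under the level of 1 FPKM, which are outside the set. Of 56 ZNF genes between 0.5 and 1 FPKM, 56 had a peak in hypoxia and 55 in normoxia, against 75.8% of 1153 other genes in either list. Of 30 between 0.25 and 0.5 FPKM, 28 had one in hypoxia and 27 in normoxia, against 66.3% and 65.6% of 1028 other genes. All ZBTB, ZSCAN, ZKSCAN, ZFP and KLF genes of at least 1 FPKM, which number 23, 4, 3, 10 and 12, had a peak in both lists. Mean peaks per gene in these families were 3.35, 4.50, 4.00, 3.80 and 2.50 in hypoxia and 2.52, 3.75, 4.33, 3.00 and 2.58 in normoxia.

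The ZNF genes with most peaks were ZNF462, with 9 in hypoxia and 11 in normoxia, ZNF638 with 8 and 8, ZNF318 with 9 and 5, ZNF518B with 7 and 6, and ZNF629 with 6 and 6. ZNF638 codes for a protein tied to splicing and to the HUSH silencing complex, and ZNF318 for a co-regulator of the androgen receptor. Each of these 5 had at least 5 peaks in both conditions.

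Peaks of ZNF genes lay in regions annotated as exonic more often than those of other genes. By the authors' annotation, 189 of the 378 hypoxia peaks (50%) and 163 of the 366 normoxia peaks (44.5%) were exonic, against 33.6% and 30.6% in other genes. In 3′ UTRs lay 37.8% in hypoxia and 41.3% in normoxia, against 47.4% and 49.3%, and in 5′ UTRs 12.2% and 14.2%, against 17.7% and 18.8%. Both UTR shares were thus lower in ZNF genes than in other genes. The label depends on the gene models: in ZNF70 and ZNF281, hypoxia peaks that reach both annotated ends of the gene are called exonic. How many members have an annotated UTR was not at hand, and its part in these shares was not tested. An exonic label therefore does not place a peak in coding sequence. An exonic peak was listed for 93 ZNF genes (71.0%) in hypoxia and 86 (65.6%) in normoxia, against 35.4% and 35.9% of other genes. Some of the families grouped by name had high exonic shares too. They were 49.4% in hypoxia and 37.9% in normoxia for ZBTB genes and 55.6% and 60% for the 4 ZSCAN genes. In KLF genes the exonic share was 26.7% and 25.8%. In ZFP genes it was 36.8% and 26.7% and in the 3 ZKSCAN genes 25% and 23.1%. The difference in exonic share from all other genes was there at equal levels: between 1 and 2 FPKM it was 52.7% in hypoxia and 50.8% in normoxia for ZNF genes, against 41.1% and 38.9%, and between 4 and 8 FPKM 43.2% and 40.2%, against 33.5% and 30.9%. Between 8 and 16 FPKM, with 18 and 21 peaks of ZNF genes, it was 33.3% and 23.8%, against 29.7% and 27.0%.

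The authors' enrichment of a peak is a log2 value of IP over input. Its median over ZNF peaks was 2.29 in the hypoxia list and 2.18 in the normoxia list, against 2.04 and 1.83 over peaks of other genes. In the lowest bin, 1 to 2 FPKM, it was 2.29 in hypoxia and 2.12 in normoxia for ZNF genes, against 2.32 and 2.03, so the hypoxia difference was not seen there.

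A split by an annotation in the expression table showed where these exonic peaks were. KEGG places many KRAB zinc finger genes in its herpes simplex virus 1 infection pathway, and 36 members carried that label. This split was added after the data were seen, in place of a reading of KRAB boxes from proteins. In the KEGG group 57 of 100 hypoxia peaks (57%) and 50 of 100 normoxia peaks (50%) were exonic, against 47.5% and 42.5% in the other 95 members. An exonic peak was found in 31 of the 36 (86.1%) in hypoxia and 27 (75%) in normoxia, against 65.3% and 62.1% of the other members. Level was not matched in this split: the median of tested members was 1.95 FPKM in the KEGG group and 3.04 FPKM outside it. The part of level in these shares was not tested.

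Exonic peaks with a span of at most 2000 bases were also placed by distance. In the KEGG group 38 of 42 (90.5%) in hypoxia and 32 of 35 (91.4%) in normoxia had their middle within 5000 bases of the annotated 3′ end of the gene. In the other members the share was 54.8% and 54.2%, and in all other genes 38.3% and 37.1%. The nearness to the end of the gene was not particular to the KEGG group, since in ZFP genes 11 of 13 such peaks (84.6%) in hypoxia and 5 of 6 (83.3%) in normoxia lay as near. The median distance was 2056 bases in hypoxia and 1925 in normoxia in the KEGG group, 4198 and 4448 in the other members, and 8546 and 9224 in other genes. The median genome span of the KEGG group was 13564 bases and that of the other members 14773, so the groups were of similar span, while other genes were longer. The part of gene span in these shares was not tested. In RNA the KEGG group and the other members were close: 7 of 35 and 13 of 95 fell, with median log2 fold changes of -0.16 and -0.13.

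**Figure D4:**
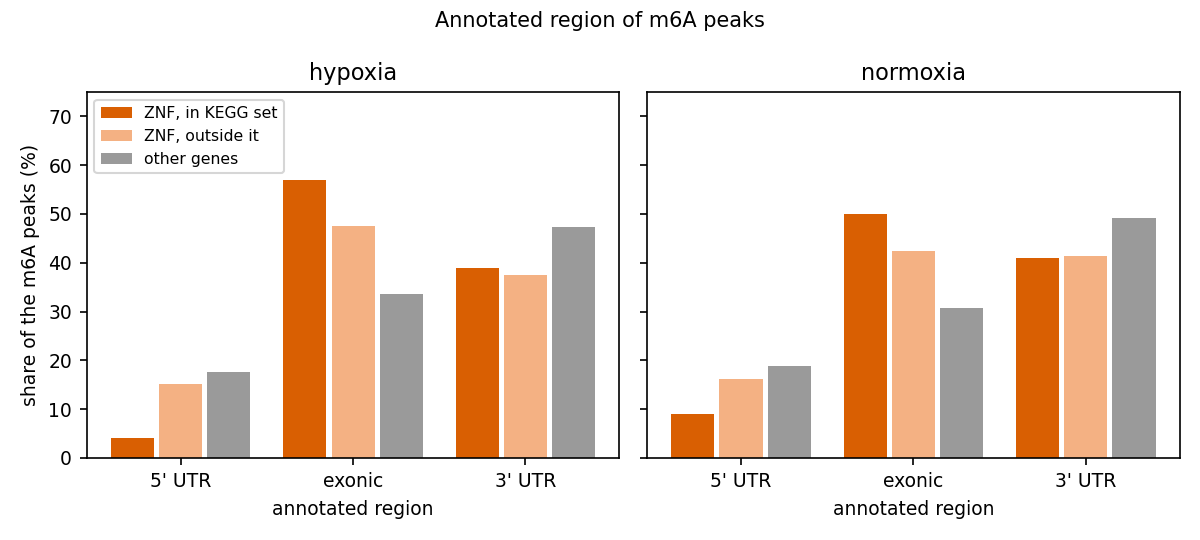
Share of listed m6A peaks (y axis, %) in each annotated region (x axis) in hypoxia (left panel) and normoxia (right panel). Dark orange bars are ZNF genes in the KEGG herpes simplex virus 1 set, light orange bars the other ZNF genes and grey bars all other genes of at least 1 FPKM; the exonic share is 57% and 47.5% in the ZNF groups and 33.6% in other genes in hypoxia, and 50%, 42.5% and 30.6% in normoxia.

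By an overlap of 1 base, most peaks of ZNF genes were found in both conditions. Of the hypoxia peaks 346 of 378 (91.5%) overlapped a normoxia peak of the same gene by at least 1 base, and of the normoxia peaks 292 of 366 (79.8%) overlapped a hypoxia peak. In other genes the shares were 87.6% and 74.0%. With a reciprocal overlap of at least 50% most were not shared: 175 peaks of each list were, 46.3% of the hypoxia and 47.8% of the normoxia peaks, against 51.5% and 48.2% in other genes. More peaks were listed in hypoxia for 44 of the 131 ZNF genes, the same number for 49 and fewer for 38, against 2009, 5025 and 2909 of 9943 other genes. More peaks in hypoxia were thus commoner among ZNF genes, and an equal number less common. The median span of a ZNF peak was 421.5 bases in hypoxia and 660 in normoxia, against 451 and 691 in other genes. A single normoxia peak of ZNF106 spans several hypoxia peaks, so more peaks need not mean more methylated sites. How equal the 2 lists are in their power to call a peak was not tested.

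The authors' deposited table of differential peaks lists 18 peaks in 16 ZNF genes, which is 12.2% of them, against 9.72% of all genes of at least 1 FPKM. Positive values were read as higher in hypoxia: 87 of 519 positive peaks overlapped the hypoxia list alone and 1 the normoxia list alone, and of 687 negative peaks 0 overlapped the hypoxia list alone and 121 the normoxia list alone. By this sign 7 peaks in 6 of the 131 ZNF genes were higher in hypoxia, against 4.39% of all genes, and 11 peaks in 10 of the 131 lower, against 5.66%. The share of ZNF genes with a listed difference was thus close to the background. An adjusted p under 0.05 was given in the authors' deposited table for 2 of the 18 (11.1%), both lower, against 426 of 1206 (35.3%) over all genes.

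The first was in the 3′ UTR of ZNF16 on the minus strand, at chr4:88413-89925 of Sscrofa11.1, with a log2 difference of -0.66 and an adjusted p of 0.01 in the authors' deposited table. In the authors' deposited lists the peak there has a log2 enrichment of 1.41 in hypoxia and 1.93 in normoxia. The peak at the very 3′ end of the gene has 2.34 in hypoxia and 3.21 in normoxia, and an exonic peak farther upstream 2.85 and 2.60. ZNF16 RNA itself fell, as given above. The second was in the 3′ UTR of ZNF48, also on the minus strand, at chr3:17921033-17922016, with a log2 difference of -0.54 and an adjusted p of 0.0117 in the authors' deposited table. The listed log2 enrichment there is 3.42 in hypoxia and 3.85 in normoxia. ZNF48 RNA averaged 3.64 ± 0.678 FPKM in hypoxia and 4.53 ± 0.999 FPKM in normoxia (SD, n = 3 each; limma log2 fold change -0.25 ± 0.203 SE, adjusted p = 0.424), which did not pass the test.

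**Figure D5:**
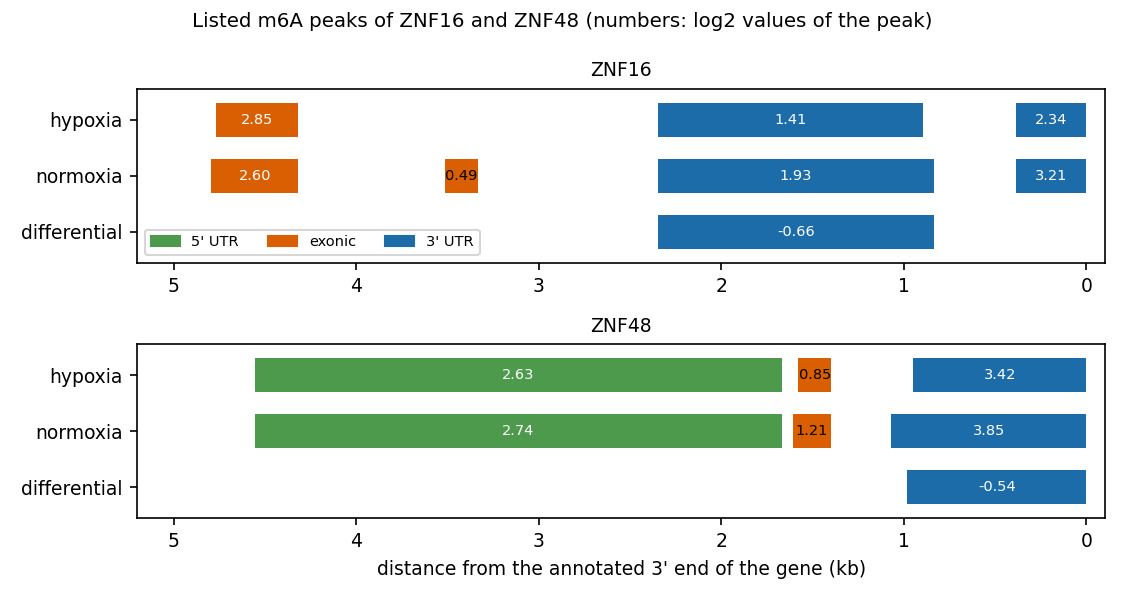
Listed m6A peaks of ZNF16 (top) and ZNF48 (bottom) by distance from the annotated 3′ end of the gene (x axis, kb), in the hypoxia list, the normoxia list and the table of differential peaks, coloured by annotated region. Numbers are the authors' log2 enrichments or, in the differential row, the log2 difference of hypoxia over normoxia, -0.66 for ZNF16 and -0.54 for ZNF48; one exonic peak of ZNF16 is listed in normoxia alone.

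The other 16 listed peaks have an adjusted p of 0.0603 or more in the authors' deposited table. By size the first were a 5′ UTR peak of ZNF641 with a log2 difference of -1.80, 3′ UTR peaks of ZNF385D with 1.70 and of ZNF783 with 1.58, and a 3′ UTR peak of ZNF512 with -0.72. Next in the authors' deposited table come ZNF618 with 0.61 and ZNF862 with 0.56, both exonic, ZNF653 with 0.52 in an exonic and 0.51 in a 3′ UTR peak, and ZNF584 with -0.475 in an exonic peak. Of the 20 genes whose RNA fell, ZNF16, ZNF513, ZNF618 and ZNF623 have a listed differential peak, lower in hypoxia for ZNF16, ZNF513 (-0.42) and ZNF623 (-0.32) and higher for ZNF618. For ZNF385D, RNA averaged 2.10 ± 0.955 FPKM in hypoxia and 1.43 ± 0.352 FPKM in normoxia (limma log2 fold change 0.31 ± 0.257 SE, adjusted p = 0.426). Across 130 tested ZNF genes, the Spearman correlation of the log2 fold change of RNA with the number of peaks was -0.21 in hypoxia and -0.16 in normoxia, a weak relation given as a description. Genes in it share the same 6 libraries and are not independent.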

How the data were processed

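Levels of 18060 genes in the input libraries are FPKM as deposited, per the file headers. HOMER 4.10, edgeR 4.1, StringTie 2.1.2, HISAT2 2.0.4, FastQC and fastp 0.19.4, and the build Sscrofa11.1, are named in the submitters' processing notes, without saying which tool made which values. The authors' deposited lists give each m6A peak's log2 enrichment and p-value, and highest adjusted p-values were 0.532 in hypoxia, 0.489 in normoxia and 0.308 in the differential table. Positions are printed counted from 1, the lists being read as counting starts from 0, and spans include introns.

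Here log2(FPKM + 1) was fitted with limma 3.58.1 in R 4.3.3 (variance trend, robust), hypoxia against normoxia, over the 10196 genes that reached 1 FPKM in 3 or more libraries, with Benjamini-Hochberg adjustment. Errors are SD over 3 libraries or the SE of the fit. Low FPKM values held no steps of whole reads (3 of 607 low genes shared the most frequent ratio), so depth is unknown and no counting interval is given. Alternatives were other scaling, pseudocount, filters, a replicate block, limma without trend, single libraries left out, and stricter peak thresholds.

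Genes named were the members with the largest called changes, the highest levels, most peaks, a listed differential peak, a place at the level threshold or a listed role, except where the text says otherwise. Members and gene lists were chosen with earlier results of these data known.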

Additional observations from a re-analysis of the deposited data

How the results depend on the processing

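After median-ratio scaling, 3 ZNF genes were higher in hypoxia and 2 lower, 753 of all tested genes were lower, and the median log2 fold change was 0.0888 for ZNF genes and 0.0174 for all genes. With no filter on level, the median was -0.0398 over all genes and that of ZNF genes relative to it -0.0929. Leaving out 1 library at a time gave 0 to 8 ZNF genes higher and 2 to 28 lower, and 334 to 1143 of all genes higher and 798 to 3186 lower. A pseudocount of 0.1 FPKM and a filter on the mean left the counts of ZNF genes at 0 higher and 20 lower, and limma without trend gave 0 and 22. With the replicate number as a block, 1 ZNF gene was higher, ZNF277, and 22 lower. The labels do not say that a number marks a shared animal or day, so the numbers were not taken as pairs. Deviations of same-numbered libraries of both conditions had correlations of 0.586, 0.0398 and 0.697. Those of hypoxia library 2 and normoxia library 1, of unlike number, had 0.641. With peaks of a log2 enrichment of at least 2, ZNF genes had 239 peaks in hypoxia and 211 in normoxia, of which 43.1% and 37.4% were exonic. The share of other genes at that threshold is not given, so these values do not show whether the difference from them held. Under a reciprocal overlap of at least 50%, 175 hypoxia peaks and 175 normoxia peaks were shared. At an adjusted p under 0.05 in the authors' deposited table, 0 differential peaks of ZNF genes were higher in hypoxia and 2 lower. The causes of these shifts were not tested. The split by KRAB box and finger number and its alternative were not run, since no protein sequences were at hand. Peak lists have no replicate values, and unknown depth limits what the low levels of most ZNF genes can show.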
